A study of Mus musculus with 12 samples.

Results

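The 10 enzymes described here make serine, proline and asparagine or handle folate-bound carbon in mitochondria, and they were taken by symbol from the 34866 genes of the deposited expression table. They are Phgdh, Psat1 and Psph of serine synthesis, Shmt2, Mthfd2, Mthfd1l and Aldh1l2 of mitochondrial folate metabolism, Aldh18a1 and Pycr1 of proline synthesis, and Asns of asparagine synthesis. Each symbol had 1 identifier, and all 10 passed the filter of a mean of at least 1 TPM (the share of a library's transcripts that a gene makes up, corrected for transcript length) that left 12504 genes for testing. The data are polyadenylated RNA from 12 fibroblast cultures that had been immortalized after isolation from mouse embryos (MEFs), 3 in each of 4 labelled groups: male Sirt3 wild-type (male WT), male Sirt3 knock-out (male KO), female WT and female KO. Sirt3 is the main protein deacetylase of mitochondria, and the question behind the design was how its loss acts in cells of each sex. The embryos were 13 days old and either Sirt3+/+ or Sirt3-/-. The methods name the strain 129S1/SvImJ for the WT mice and give only a stock number for the KO mice. All 4 groups share immortalization with an SV40 plasmid, passage 6 and RNA collection 48 h after seeding. The methods state triplicate wells and no number of lines or embryos per group, so sex, genotype and cell line cannot be told apart, and p-values measure only the spread between cultures.

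Serine is built from a glycolytic intermediate in the cytosol, and in mitochondria Shmt2 passes a carbon unit from serine to folate, where it can leave as formate or be oxidised. Proline is built in mitochondria from glutamate, and asparagine in the cytosol from aspartate with glutamine as nitrogen donor. In cultured fibroblasts these enzymes are known as a group that Atf4, the transcription factor of the integrated stress response, can induce when amino acids run short or mitochondria are stressed.

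Sirt3 itself (ENSMUSG00000025486.17, chromosome 7 of GRCm38 from 140863666 to 140882309) had 6.59, 7.17 and 9.07 TPM in the labelled male WT libraries and 8.88, 10.9 and 11 TPM in the labelled male KO libraries. It had 7.4, 7.60 and 8.69 TPM in the labelled female WT and 7.57, 9.06 and 8.19 TPM in the labelled female KO libraries. Libraries labelled KO thus held no less Sirt3 mRNA than those labelled WT, and a TPM value for a whole gene cannot tell an intact transcript from a truncated one. Groups are therefore named by their labels throughout. The authors also show an immunoblot for Sirt3 protein, which was not examined here. In all 3 Y-linked genes examined, 6 of 6 labelled male libraries stood above every labelled female library. Of 10 fibroblast markers 9 had a mean of at least 1 TPM (Lum did not), and their summed level ran from 7937 to 12126 TPM over the libraries.

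In labelled male KO MEFs every enzyme of the group stood higher than in labelled male WT MEFs. All 10 were called higher, as were 10.7% of tested genes. In labelled female KO MEFs none was called higher and 2 were called lower than in labelled female WT MEFs. Of the 12504 tested genes 704 were called higher and 730 lower in females. At that share, the lack of higher calls among 10 genes does not set the enzymes apart. The summed level of the 10 enzymes was 1561 ± 4.61 TPM in labelled male WT (SD, n = 3 in each group), 2055 ± 26.8 TPM in labelled male KO, 1820 ± 18.7 TPM in labelled female WT and 1711 ± 26.8 TPM in labelled female KO libraries. The 2 largest rises, in Pycr1 and Aldh1l2, were in the 2 enzymes with the lowest mean level, while Phgdh and Shmt2, the 2 with the highest, changed by far less. The plot of TPM by library gives the 12 values of each enzyme.

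**Figure D1:**
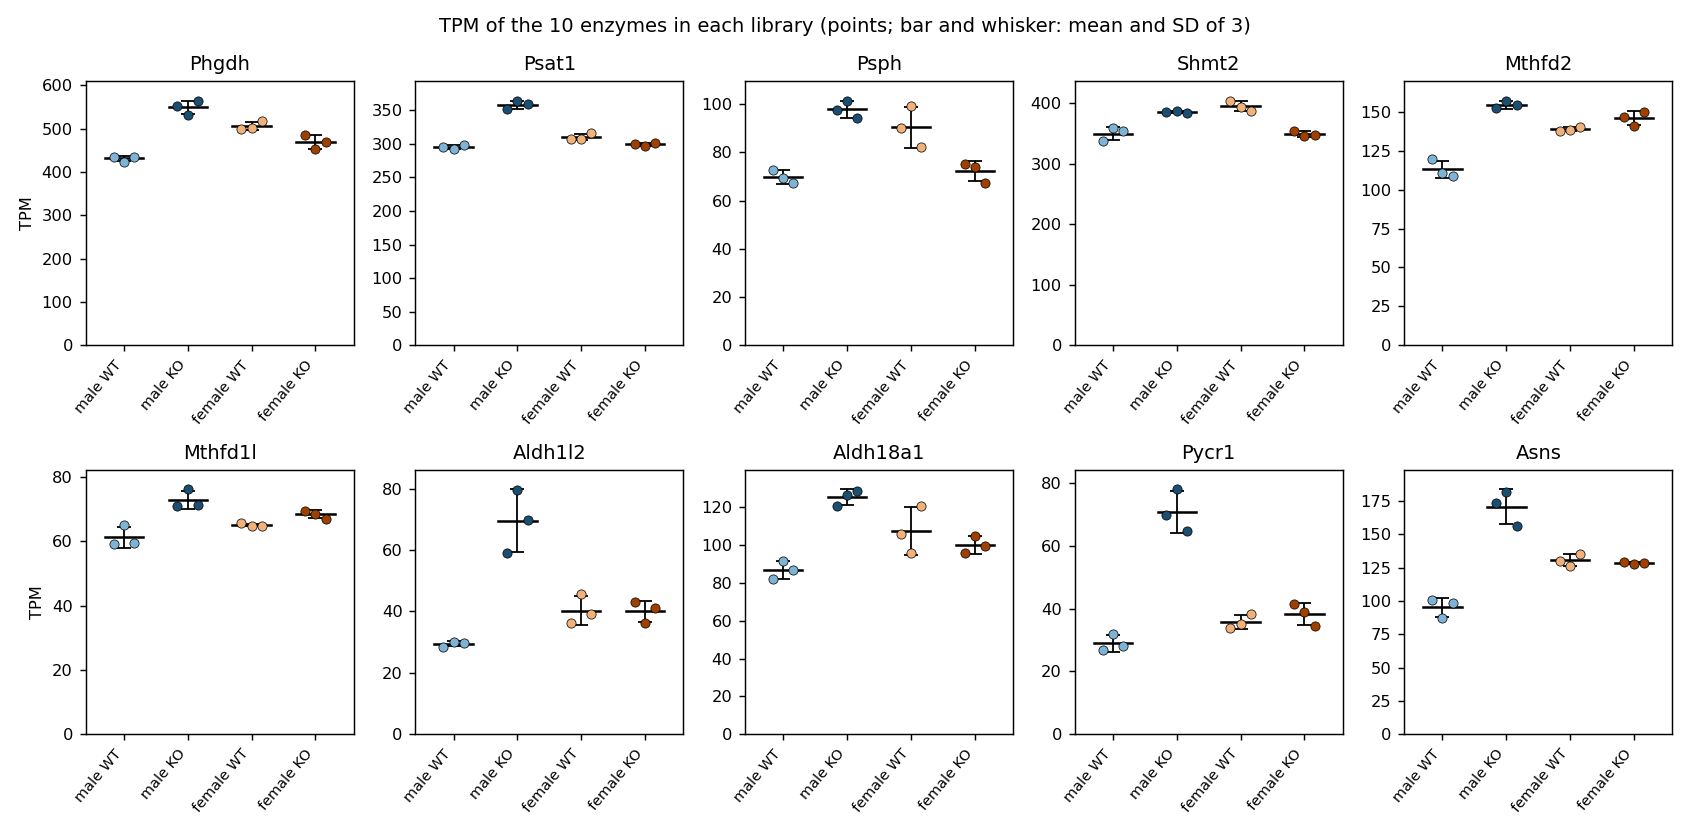
TPM of the 10 enzymes (vertical axes, each from 0) in the 12 libraries, by labelled group. Points are libraries, bars and whiskers the mean and SD of 3. The 3 labelled male KO libraries lie above the 3 labelled male WT libraries in all 10 panels, and the labelled male WT libraries are the lowest of the 12 in 6 of them.

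Phgdh (ENSMUSG00000053398.11, chromosome 3 from 98313170 to 98339990) catalyses the committed step of serine synthesis and had the highest mean level of the group, 489 TPM, 298th of the tested genes. It had 435, 424 and 434 TPM in labelled male WT, 551, 532 and 563 TPM in labelled male KO, 499.8, 502 and 517 TPM in labelled female WT and 486, 453 and 468 TPM in labelled female KO libraries. No pair of groups overlapped, and the order ran from labelled male KO through female WT and female KO down to male WT. Psat1 (ENSMUSG00000024640.9, chromosome 19 from 15904678 to 15947337), the aminotransferase that follows Phgdh, had 295, 292 and 298 TPM in labelled male WT, 352, 364 and 359 TPM in labelled male KO, 307, 307 and 316 TPM in labelled female WT and 299, 297 and 301 TPM in labelled female KO libraries. The labelled male KO libraries stood 1.21-fold above labelled male WT, while the labelled female KO and male WT libraries overlapped. Psph (ENSMUSG00000029446.14, chromosome 5 from 129765558 to 129787449), the phosphatase of the last step, had 72.9, 69.6 and 67.3 TPM in labelled male WT and 97.7, 101 and 94.3 TPM in labelled male KO libraries. In females it had 89.9, 99.0 and 82.0 TPM in labelled WT and 75.3, 74.0 and 67.4 TPM in labelled KO libraries, so that the labelled male KO overlapped with female WT and the labelled male WT with female KO.

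Shmt2 (ENSMUSG00000025403.5, chromosome 10 from 127517123 to 127522444), the mitochondrial serine hydroxymethyltransferase, had 337, 358 and 354 TPM in labelled male WT, 385, 388 and 383 TPM in labelled male KO, 404, 394 and 388 TPM in labelled female WT and 354, 346 and 347 TPM in labelled female KO libraries. Its levels formed a high pair, female WT with male KO, and a low pair, male WT with female KO, and within each pair the libraries overlapped. Mthfd2 (ENSMUSG00000005667.8, chromosome 6 from 83305691 to 83325908) is the dehydrogenase and cyclohydrolase that carries the folate-bound carbon on, and had 119, 111 and 109 TPM in labelled male WT, 152, 157 and 154 TPM in labelled male KO, 137, 138 and 140.1 TPM in labelled female WT and 147, 141 and 149.8 TPM in labelled female KO libraries. No pair of groups overlapped in Mthfd2, and the labelled female KO libraries stood second, above female WT. Mthfd1l (ENSMUSG00000040675.17, chromosome 10 from 3973118 to 4167081), which releases formate, had 59.1, 65.1 and 59.5 TPM in labelled male WT, 71.0, 76.2 and 71.5 TPM in labelled male KO, 65.6, 64.8 and 64.9 TPM in labelled female WT and 69.5, 68.6 and 67.0 TPM in labelled female KO libraries. Labelled male WT replicate 2 lay inside the range of the female WT libraries. Aldh1l2 (ENSMUSG00000020256.14, chromosome 10 from 83487450 to 83534140), which oxidises formyl-folate to carbon dioxide and yields NADPH, had 28.5, 30.0 and 29.8 TPM in labelled male WT and 59.2, 79.6 and 69.9 TPM in labelled male KO libraries. In females it had 36.1, 45.6 and 39.1 TPM in labelled WT and 43.0, 36.3 and 40.9 TPM in labelled KO libraries, which overlapped. The labelled male KO libraries spread widely in this gene, with a mean of 69.6 TPM and an SD of 10.2 TPM, and still stood above all other 9.

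Aldh18a1 (ENSMUSG00000025007.13, chromosome 19 from 40550257 to 40588463), which makes the pyrroline precursor of proline from glutamate, had 82.1, 91.5 and 87.0 TPM in labelled male WT, 121, 127 and 129 TPM in labelled male KO, 106, 95.7 and 121 TPM in labelled female WT and 95.7, 105 and 99.9 TPM in labelled female KO libraries. The highest labelled female WT library, replicate 3, came within the rounding of the lowest labelled male KO library. Pycr1 (ENSMUSG00000025140.15, chromosome 11 from 120635712 to 120643769), the mitochondrial reductase that completes proline, had 26.7, 32.0 and 28.1 TPM in labelled male WT and 69.8, 78.1 and 64.9 TPM in labelled male KO libraries, a 2.45-fold difference of the means. It had 33.8, 35.1 and 38.2 TPM in labelled female WT and 41.6, 39.0 and 34.6 TPM in labelled female KO libraries, so the female groups overlapped between the male groups. Asns (ENSMUSG00000029752.12, chromosome 6 from 7675169 to 7693254), the asparagine synthetase, had 100.5, 87.0 and 98.4 TPM in labelled male WT, 174, 182 and 157 TPM in labelled male KO, 129.7, 127 and 136 TPM in labelled female WT and 129, 128 and 129 TPM in labelled female KO libraries. The female groups overlapped, and all 6 female libraries lay between the labelled male WT and male KO libraries.

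Promoters were read because the enzymes moved together in males. RefSeq windows of 300 bases, from 250 before to 50 after the annotated start on GRCm38.p6, were matched for 9 of the 10 enzymes, and Aldh1l2 had no entry. Both strands were searched for TGATGNAA, the composite C/EBP-ATF element to which Atf4 binds together with a C/EBP factor, and for CACGTG, the E-box to which Myc and related factors bind. The motifs share no bases in the 3 sites found, which are shown with 11 bases on either side, in the direction of the gene, with the motif in capitals.
Asns, chr6:7693214-7693243, minus strand: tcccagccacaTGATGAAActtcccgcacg
Pycr1, chr11:120643833-120643862, minus strand: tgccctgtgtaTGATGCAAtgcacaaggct
Aldh18a1, chr19:40588506-40588533, minus strand: gagggggccgcCACGTGgagcgtgggcg
The motif in Asns begins 23 bases before the RefSeq start and lies in an exon of 1 of the 7 annotated GENCODE transcripts of the gene. The motif in Pycr1 begins 103 bases and that in Aldh18a1 59 bases before the start, in no annotated transcript of either gene. TGATGNAA was thus present for 2 of 9 enzymes, against 3.97% of all 32851 promoter windows, and CACGTG, which reads the same on both strands, for 1 of 9, against 7.15%. These are matches of letters within a short window and do not show a bound site.

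Between labelled male KO and male WT MEFs all 10 enzymes were called higher at an adjusted p under 0.05 (limma on log2(TPM+1), with Benjamini-Hochberg adjustment over all genes tested), while 10.7% of all tested genes were called higher. The proline enzyme Pycr1 and the folate enzyme Aldh1l2 rose most, and Shmt2 and Mthfd1l, which are also mitochondrial folate enzymes, least. The log2 difference was 1.26 ± 0.093 (standard error) for Pycr1, 1.20 ± 0.10 for Aldh1l2, 0.84 ± 0.076 for Asns and 0.53 ± 0.053 for Aldh18a1. It was 0.48 ± 0.051 for Psph, 0.45 ± 0.046 for Mthfd2, 0.35 ± 0.033 for Phgdh and 0.28 ± 0.030 for Psat1, and these 8 genes had limma adjusted p between 0.000154 (Pycr1) and 0.000986 (Psat1). Mthfd1l, at 0.25 ± 0.058 (limma adjusted p = 0.0227), and Shmt2, at 0.14 ± 0.034 (limma adjusted p = 0.0273), were nearest to the threshold. The median over the 10 enzymes was 0.46, and that over all tested genes -0.015. In all 10 the labelled male KO libraries did not overlap with male WT, as was true, in the same direction, of 18.8% of tested genes. The Shmt2 call was lost on leaving out any library but male WT replicate 2 (limma adjusted p from 0.0653 to 0.0751). The Mthfd1l call was lost without male WT replicate 1 or 3 or male KO replicate 2 or 3 (from 0.0585 to 0.0810).

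In females 2 of the 10 enzymes were called, both lower in labelled KO than in labelled WT MEFs, against 11.5% of tested genes called in either direction. Shmt2 fell by 0.18 on the log2 scale, with a standard error of 0.027 (limma adjusted p = 0.00945), and Psph by 0.32, with a standard error of 0.078 (limma adjusted p = 0.0467). Phgdh was -0.11 ± 0.033 and Psat1 -0.051 ± 0.025, and neither passed (limma adjusted p = 0.0854 and 0.250), although in both genes every labelled female KO library lay below every female WT library. Mthfd2, at 0.071 ± 0.034, and Mthfd1l, at 0.070 ± 0.036, had their labelled KO libraries above WT without passing (limma adjusted p = 0.239 and 0.267). The labelled KO libraries thus lay above WT without overlap in 2 enzymes and below in 4, against 14.9% and 18.7% of tested genes. The other 4 overlapped between the groups: Aldh18a1 at -0.095 ± 0.085, Pycr1 at 0.099 ± 0.082, Asns at -0.023 ± 0.036 and Aldh1l2 at -0.0028 ± 0.10, the last 2 turning positive with median-of-ratios scaling. For Pycr1 the 95% interval of the female difference ran from -0.096 to 0.29 and for Aldh1l2 from -0.24 to 0.24, against male intervals of 1.05 to 1.48 and 0.96 to 1.45. The median over the 10 enzymes was -0.037 and that over all tested genes -0.023. The Psph call was lost on leaving out any library but female WT replicate 3 (limma adjusted p from 0.0855 to 0.124).

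**Figure D2:**
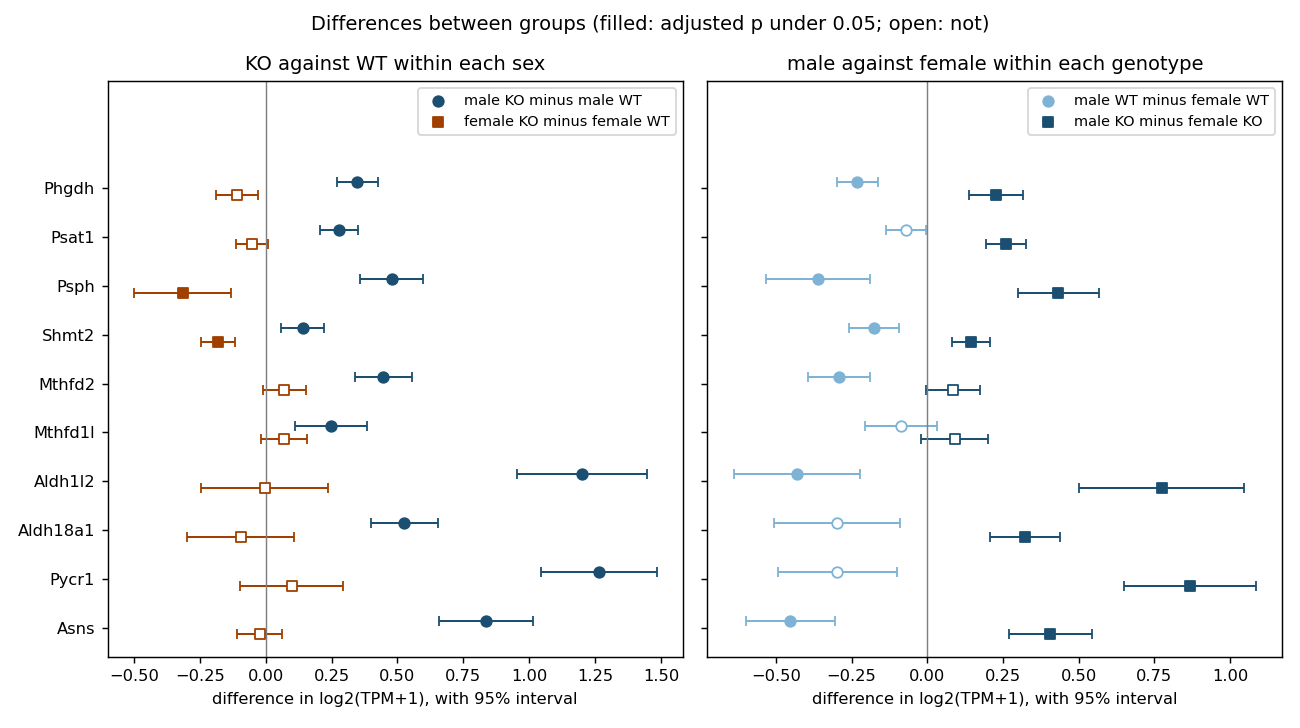
Differences in log2(TPM+1) between labelled groups for the 10 enzymes, with 95% intervals, for KO minus WT in each sex (left) and male minus female in each genotype (right). Filled symbols had an adjusted p under 0.05. In the left panel the male values lie to the right of 0 for all 10 enzymes and the female values spread around 0, and in the right panel the values for WT lie to the left of 0 and those for KO to the right.

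The effect of the labelled KO differed between the sexes in 9 of the 10 enzymes by the interaction test over all 12 libraries, each time with the larger value in males, while 13.0% of tested genes passed that test and 6.70% passed it in this direction. The interaction, the male minus the female log2 difference, was largest for Aldh1l2 (1.20 ± 0.15), Pycr1 (1.17 ± 0.13), Asns (0.86 ± 0.089) and Psph (0.79 ± 0.096). It was 0.62 ± 0.11 for Aldh18a1, 0.46 ± 0.046 for Phgdh, 0.38 ± 0.056 for Mthfd2, 0.33 ± 0.036 for Psat1 and 0.32 ± 0.041 for Shmt2. These 9 had limma adjusted p between 4.82e-05 (Phgdh) and 0.00226 (Aldh18a1). Mthfd1l did not pass, at 0.18 ± 0.066 (limma adjusted p = 0.110), but did without male WT replicate 2 (0.22, limma adjusted p = 0.0366). The enzymes thus ranked differently by the interaction than by the male difference, since Psph and Shmt2 fell in females while Mthfd2 and Mthfd1l did not.

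Among WT libraries all 10 enzymes were lower on average in labelled male than in labelled female MEFs, and 6 were called lower, against 6.56% of tested genes. The log2 difference, male minus female, was -0.45 ± 0.062 for Asns, -0.43 ± 0.088 for Aldh1l2, -0.36 ± 0.073 for Psph, -0.29 ± 0.043 for Mthfd2, -0.23 ± 0.028 for Phgdh and -0.18 ± 0.035 for Shmt2, with limma adjusted p between 0.00264 (Phgdh) and 0.0217 (Aldh1l2). Aldh18a1 (-0.30 ± 0.087, limma adjusted p = 0.0720) and Pycr1 (-0.30 ± 0.083, limma adjusted p = 0.0630) missed the threshold with differences as large, and Mthfd1l and Psat1 were at -0.087 ± 0.050 and -0.070 ± 0.028. In 9 of the 10 enzymes, all but Mthfd1l, every labelled male WT library lay below every female WT library, as was true of 18.5% of tested genes. The median of the 10 was -0.30, and -0.018 over all tested genes. Leaving out male WT replicate 3 took away the calls of Aldh1l2, Psph and Shmt2 and left 3. These 3 calls were also lost without other libraries, Psph without male WT replicate 2 or female WT replicate 1, Shmt2 without female WT replicate 1 or 2, and Aldh1l2 without male WT replicate 1 or 2 or female WT replicate 3 (limma adjusted p from 0.0527 to 0.0735 over the 3 genes), while Aldh18a1 gained a call without female WT replicate 2 (0.0389) and Pycr1 without male WT replicate 2 (0.0348).

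Among KO libraries the order was turned round: all 10 enzymes were higher in labelled male than in labelled female MEFs, and 8 were called higher, against 8.17% of tested genes. Pycr1 differed most, at 0.87 ± 0.092, followed by Aldh1l2 at 0.77 ± 0.12, Psph at 0.43 ± 0.056 and Asns at 0.41 ± 0.058. Aldh18a1 was at 0.32 ± 0.049, Psat1 at 0.26 ± 0.028, Phgdh at 0.23 ± 0.037 and Shmt2 at 0.14 ± 0.027, with limma adjusted p between 0.000977 (Pycr1) and 0.0124 (Shmt2) over the 8. Mthfd2 (0.083 ± 0.038, limma adjusted p = 0.191) and Mthfd1l (0.090 ± 0.046, limma adjusted p = 0.244) did not pass. In no enzyme did the labelled male KO overlap with the female KO libraries, as was true, in the same direction, of 16.7% of tested genes. The Shmt2 call was lost without female KO replicate 3 (limma adjusted p = 0.0505). These comparisons share their libraries with those of KO against WT, so each group's values enter more than 1 of them.

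Set against all other 9 libraries at once, the labelled male KO libraries were the highest 3 in 8 enzymes (Phgdh, Psat1, Mthfd2, Mthfd1l, Aldh1l2, Aldh18a1, Pycr1 and Asns), as they were in 7.92% of tested genes. The labelled male WT libraries were the lowest 3 in 6 enzymes (Phgdh, Mthfd2, Aldh1l2, Aldh18a1, Pycr1 and Asns), as they were in 4.41% of tested genes. In none of the 10 were the 3 libraries of a female group the highest 3 or the lowest 3. Labelled female WT libraries were so in 5.44% (highest) and 3.73% (lowest) of tested genes, and female KO libraries in 3.82% and 2.59%. At these shares, 10 genes are too few to set the enzymes apart from other genes in this respect. By group means, labelled male KO stood highest in all but Shmt2, and labelled male WT lowest in all but Shmt2. Female WT stood second in Phgdh, Psat1, Psph, Aldh1l2, Aldh18a1 and Asns, but in the last 3 of these it overlapped with female KO.

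By arm, the 3 serine enzymes summed to 796 ± 8.93 TPM in labelled male WT and 1005 ± 10.3 TPM in labelled male KO, and to 907 ± 9.10 TPM in labelled female WT and 841 ± 18.5 TPM in labelled female KO libraries (SD, n = 3). The 4 mitochondrial folate enzymes summed to 554 ± 10.2 and 682 ± 16.9 TPM in the male groups and to 639 ± 6.70 and 603 ± 10.8 TPM in the female groups, WT before KO. The proline pair summed to 116 ± 7.41 and 196 ± 7.38 TPM in males and 143 ± 14.4 and 139 ± 4.94 TPM in females. In the serine and folate arms both female sums lay between the male sums with no overlap, and in the proline arm the female groups overlapped with each other. Shmt2 made up the largest part of the folate sum and did not itself follow this order. Its means were 350 and 385 TPM in the male groups and 395 and 349 TPM in the female groups, WT before KO.

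Several enzymes have a paralog that runs the same reaction in another place or form. None of the 4 tested ones described here was called higher in males, where 10.7% of all tested genes were. At that share, 4 genes are too few to set the paralogs apart from other genes. Shmt1, the cytosolic counterpart of Shmt2, was 83.5 ± 4.57 TPM in labelled male WT and 71.3 ± 3.47 TPM in labelled male KO libraries and fell by 0.23 on the log2 scale, with a standard error of 0.060 (limma adjusted p = 0.0361). Mthfd1, the cytosolic counterpart of Mthfd1l and Mthfd2, was 95.7 ± 2.06 and 85.2 ± 1.85 TPM and fell by 0.17, with a standard error of 0.041 (limma adjusted p = 0.0285). Mthfd2l, a mitochondrial relative of Mthfd2, was 31.4 ± 0.981 and 36.2 ± 3.65 TPM (0.20 ± 0.082, limma adjusted p = 0.139), and Pycrl, the cytosolic proline reductase, 62.5 ± 3.79 and 62.1 ± 5.86 TPM (limma adjusted p = 0.929). Aldh1l1, the cytosolic counterpart of Aldh1l2, was below the filter, from 0 to 2.62 TPM over the 12 libraries. In females none of these passed, with Shmt1 at -0.14 ± 0.060, Mthfd1 at 0.17 ± 0.060, Mthfd2l at 0.13 ± 0.066 and Pycrl at 0.032 ± 0.045 (limma adjusted p from 0.133 to 0.699). Mthfd1 did pass there without female WT replicate 1 (limma adjusted p = 0.0394). The interaction was called for Mthfd1 (-0.33 ± 0.073), with the sign opposite to that of Mthfd2. The male call of Shmt1 was lost without male WT replicate 1 or 2 or male KO replicate 1 or 3 (limma adjusted p from 0.101 to 0.107) and that of Mthfd1 without any library but male KO replicate 2 (from 0.0577 to 0.0821), while Mthfd2l passed without male KO replicate 2 (0.0400).

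The ratio of enzyme to paralog within a library does not depend on how libraries are scaled. Shmt2 over Shmt1 was 4.19 ± 0.280 and 5.41 ± 0.240 in the male groups and 4.09 ± 0.258 and 3.99 ± 0.179 in the female groups (SD, n = 3, WT before KO). Mthfd1l over Mthfd1 was 0.640 ± 0.0297 and 0.856 ± 0.0199 in males and 0.696 ± 0.0486 and 0.650 ± 0.0201 in females. Mthfd2 over Mthfd2l was 3.61 ± 0.253 and 4.30 ± 0.504 in males and 4.94 ± 0.264 and 4.74 ± 0.391 in females, and Pycr1 over Pycrl was 0.463 ± 0.0274 and 1.16 ± 0.223 in males and 0.552 ± 0.0234 and 0.581 ± 0.0547 in females. In all 4 ratios the labelled male KO libraries lay above male WT without overlap, for which the exact two-sided permutation test gives p = 0.1, the smallest that 3 against 3 allows. In all 4 the female groups overlapped, with exact permutation p from 0.3 to 0.6. The 4 numerators had already separated the labelled male groups without overlap, and Shmt1 and Mthfd1 had been called lower there. The male ratios therefore repeat those results and give no separate support, and no share over other gene pairs was taken.

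**Figure D3:**
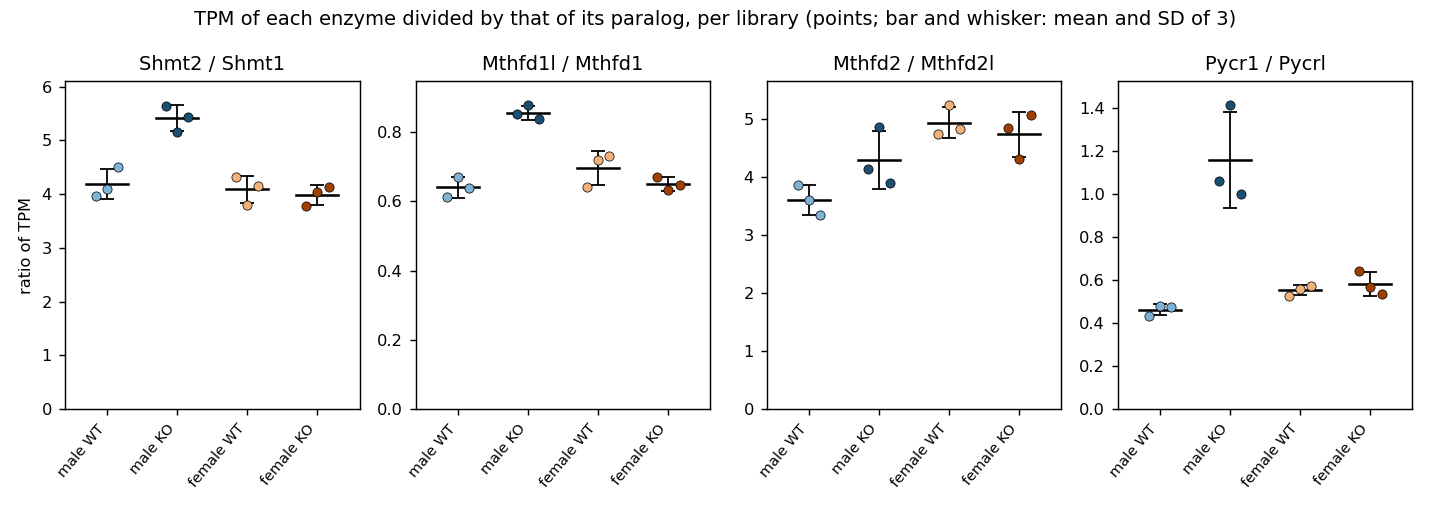
TPM of an enzyme divided by TPM of its paralog within each library (vertical axes, ratio, from 0), by labelled group. Points are libraries, bars and whiskers the mean and SD of 3. The labelled male KO libraries stand above the male WT libraries in the 4 panels, and the female groups overlap.

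The other genes of these pathways were called in both directions. Of 52 other genes listed for these pathways, the paralogs included, 44 passed the filter. Between labelled male KO and male WT MEFs 5 were called higher and 6 lower, where 21.6% of all tested genes were called, and the median was 0.015 against -0.015 over all tested genes. Among 10 tested genes of serine and glycine metabolism and transport 1 was called higher (Cth) and 1 lower (Shmt1). Among 19 genes of the folate and methionine cycles 1 was called higher (Ggh) and 2 lower (Mthfd1 and Gart), and among 15 genes around proline, glutamate, aspartate and asparagine 3 were called higher (Oat, Gpt2 and Asrgl1) and 3 lower (Ass1 and Glud1 among them). In females 1 of the 44 was called higher and 2 lower, where 11.5% of all tested genes were called, and the interaction was called positive for 4 and negative for 5, where 13.0% were called.

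Cth, which makes cysteine from cystathionine, was 17.2 ± 1.88 TPM in labelled male WT, 34.8 ± 3.39 in labelled male KO, 34.5 ± 0.0373 in labelled female WT and 20.7 ± 2.67 in labelled female KO libraries (SD, n = 3), and so rose in males (0.97 ± 0.10, limma adjusted p = 0.000922) and fell in females by 0.72, with a standard error of 0.094 (limma adjusted p = 0.00541). Gpt2, the mitochondrial alanine aminotransferase, went from 20.8 ± 1.71 to 38.8 ± 4.99 TPM in males (0.87 ± 0.11, limma adjusted p = 0.00173) and was 27.8 ± 1.01 and 25.8 ± 1.17 TPM in females. Oat, which links ornithine to the proline precursor, went from 106 ± 4.56 to 156 ± 4.34 TPM in males (0.56 ± 0.047, limma adjusted p = 0.000289) and was 107 ± 4.32 and 117 ± 3.38 TPM in females. Ass1, which uses aspartate to make argininosuccinate, moved the other way, from 122 ± 2.01 to 66.4 ± 4.45 TPM in males, and fell by 0.87 on the log2 scale, with a standard error of 0.057 (limma adjusted p = 9.34e-05). In females Ass1 was 113 ± 1.47 and 121 ± 5.48 TPM. Gart, of purine synthesis, fell in males from 119.8 ± 0.583 to 102 ± 4.70 TPM (limma adjusted p = 0.0128).

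Asrgl1, an asparaginase, was called in males at 1.36 ± 0.34 (limma adjusted p = 0.0295) on low and scattered values, 1.78, 4.57 and 1.78 TPM in labelled male WT and 7.06, 11.9 and 6.00 TPM in labelled male KO libraries. Ggh, the folate hydrolase of lysosomes, was 7.71 ± 1.29 and 11.3 ± 0.506 TPM in males (0.50 ± 0.12, limma adjusted p = 0.0287), and Glud1, the mitochondrial glutamate dehydrogenase, 193 ± 1.34 and 169.7 ± 6.99 TPM (-0.19 ± 0.041, limma adjusted p = 0.0187). Sfxn3, a sideroflexin named after its values were seen because it was the 1 gene of the list called higher in females, was at 0.22 ± 0.043 in females (limma adjusted p = 0.0210). Leaving out single libraries took away the male calls of Asrgl1 (male WT replicate 1 or 3, male KO replicate 1 or 2), of Ggh (any but male WT replicate 2) and of Glud1 (any but male KO replicate 2), with limma adjusted p from 0.0506 to 0.0958. It likewise took away the female call of Sfxn3 (any library), with limma adjusted p from 0.0519 to 0.0693, and the interaction call of Glud1 in 5 of the 12 cases.

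**Figure D4:**
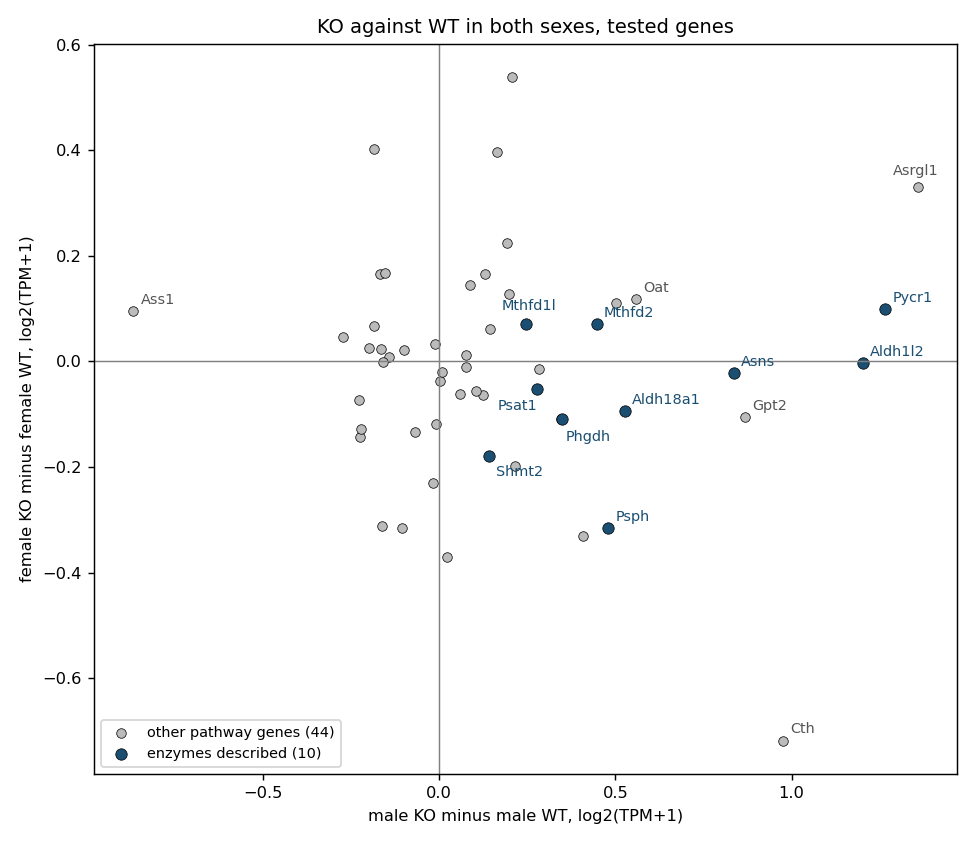
Difference in log2(TPM+1) between labelled KO and WT in males (horizontal axis) and females (vertical axis), for the 10 enzymes and the 44 other tested pathway genes. The 10 enzymes lie to the right of 0, between 0.14 and 1.26, whereas the other genes spread from -0.87 to 1.36 around a male median of 0.015.

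Of the regulators, Atf4 (chromosome 15 from 80255184 to 80257541) had 204, 218 and 209 TPM in labelled male WT, 365, 368 and 386 TPM in labelled male KO, 283, 289.9 and 278 TPM in labelled female WT and 260.3, 259.6 and 259 TPM in labelled female KO libraries. No pair of groups overlapped. By means, the order of the groups was that of Phgdh, Psat1, Psph, Aldh1l2, Aldh18a1 and Asns. Of these enzymes only Phgdh also kept its groups apart without overlap, and Shmt2, Mthfd2, Mthfd1l and Pycr1 had other orders. The share of tested genes with the order of Atf4 was not counted. An mRNA level does not measure a factor's activity, and the part of the regulators in the enzyme levels was not tested. Atf4 rose in males by 0.82 ± 0.040 (limma adjusted p = 2.76e-05) and fell in females by 0.13, with a standard error of 0.027 (limma adjusted p = 0.0285), a female call that was lost on leaving out any of the 6 libraries (from 0.0587 to 0.0827). Cebpb, a basic leucine zipper factor that can pair with Atf4, was 117 ± 3.86 TPM in labelled male WT, 227 ± 10.7 in labelled male KO, 143 ± 12.5 in labelled female WT and 144 ± 6.29 in labelled female KO libraries, and rose in males by 0.95 ± 0.048 (limma adjusted p = 3.15e-05). Trib3, a target of Atf4 that feeds back on it, was 20.7 ± 1.30, 55.2 ± 3.74, 29.3 ± 1.35 and 26.4 ± 0.853 TPM in the same order of groups, and rose in males by 1.37 ± 0.076 (limma adjusted p = 4.28e-05). Cebpg, another partner of Atf4, was 34.4 ± 4.54, 42.8 ± 4.02, 37.8 ± 7.88 and 31.3 ± 2.74 TPM and passed in neither sex (limma adjusted p = 0.0899 in males and 0.356 in females). In males Cebpg did pass without male WT replicate 3 (0.0404).

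Myc can also induce serine and folate enzymes, and whether it did so here was not tested. It was 170.4 ± 0.475 TPM in labelled male WT, 158 ± 3.72 in labelled male KO, 195 ± 2.31 in labelled female WT and 156 ± 2.09 in labelled female KO libraries, and fell in females by 0.32, with a standard error of 0.028 (limma adjusted p = 0.00109), while the male difference of -0.11 ± 0.035 did not pass (limma adjusted p = 0.0690). The interaction was called for Atf4 (0.95 ± 0.047), Cebpb (0.94 ± 0.087), Trib3 (1.51 ± 0.094) and Myc (0.21 ± 0.041), with limma adjusted p of at most 0.00523, and not for Cebpg (0.56 ± 0.20, limma adjusted p = 0.104, or 0.0132 without female WT replicate 1).

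**Figure D5:**
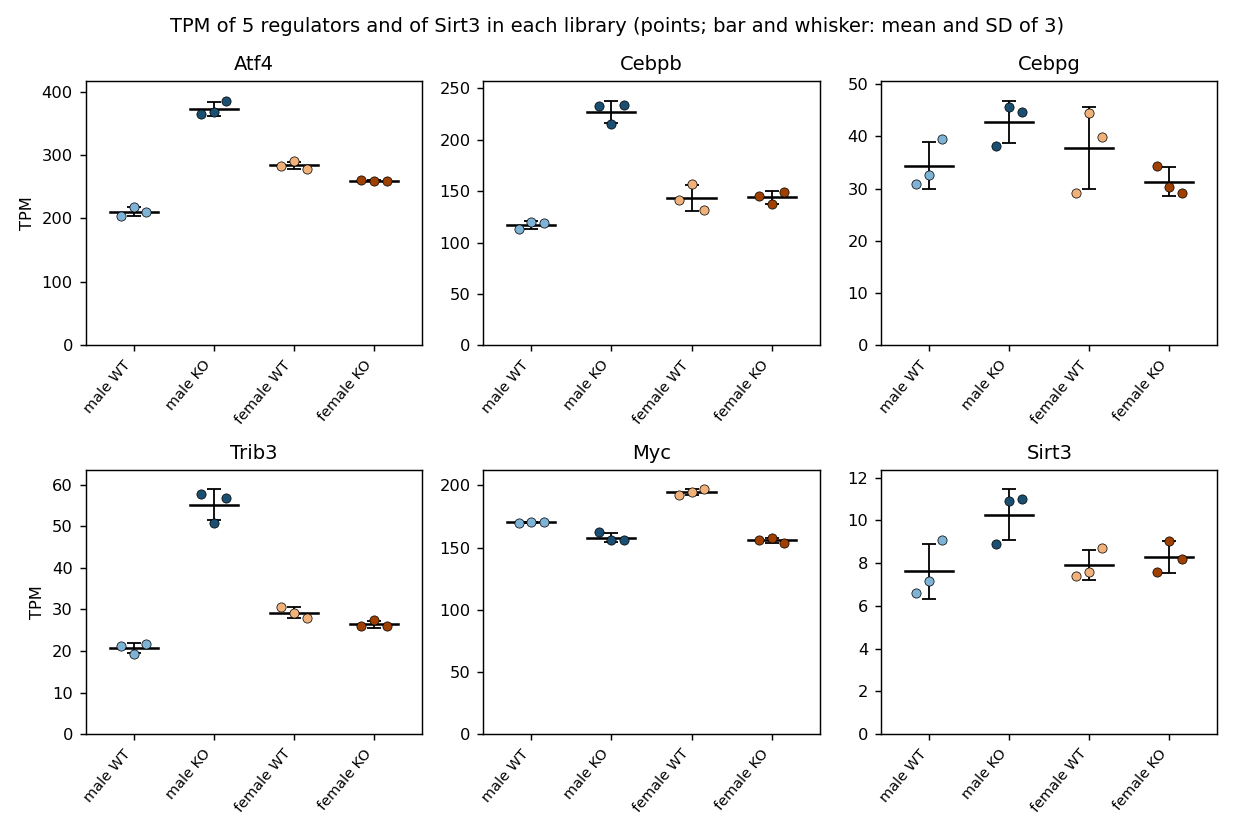
TPM of Atf4, Cebpb, Cebpg, Trib3, Myc and Sirt3 (vertical axes, each from 0) in the 12 libraries, by labelled group. Points are libraries, bars and whiskers the mean and SD of 3. Atf4, Cebpb and Trib3 are highest in the 3 labelled male KO libraries and lowest in the 3 labelled male WT libraries, Myc is highest in the labelled female WT libraries, and Sirt3 is not lower in the libraries labelled KO.

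Over the 12 libraries the log2(TPM+1) values of each pair of the 10 enzymes correlated with a Pearson r between 0.39 and 0.95, with a median of 0.82 over 45 pairs. Once each group's mean was removed the r ran from -0.74 to 0.79 with a median of 0.065, so the pairs were alike mainly through their group means. The points share their groups of 3 libraries, and these values are descriptions. The genes most like an enzyme are given here for 5 of the 10. Among all tested genes the 3 most like Psat1 were Chac1 (r = 0.99), Gxylt2 and Slc16a3 (r = 0.98 each). Those most like Phgdh were Il11 (r = 0.98), Mt1 and Mapk3 (r = 0.96 each), and those most like Aldh1l2 were Ccni (r = 0.98), Ehd3 and Wdfy2 (r = 0.97 each). Those most like Pycr1 were Amotl2, Arsi and Srpx2 (r = 0.98 each), and those most like Asns were Col15a1 (r = 0.97), Ifnar1 and Ergic1 (r = 0.96 each). No gene of the group was among the 3 genes most like any of these 5 enzymes.

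Summed markers of cell types differed between some of the labelled groups. The 4 epithelial markers summed to between 9.47 and 10.6 TPM in labelled male WT and between 0.603 and 1.12 TPM in labelled male KO libraries, and to between 6.35 and 7.46 and between 1.80 and 2.25 TPM in the female groups, with Cdh1 and Krt8 at a mean below 1 TPM. The 3 neural markers summed to between 127 and 135 TPM in labelled male WT, 77.0 and 90.6 TPM in male KO, 153 and 167 TPM in female WT and 95 and 110.1 TPM in female KO libraries. The fibroblast list summed to between 9087 and 10204 TPM in labelled male WT and 11429 and 12126 TPM in male KO, and to between 7937 and 8124 and between 9710 and 10044 TPM in the female groups. Blood markers summed to between 3.98 and 10 TPM over all libraries, with Ptprc and Adgre1 at a mean below 1 TPM. Endothelial markers summed to between 1.58 and 1.92 TPM in labelled male WT and 1.34 and 1.61 TPM in male KO libraries. In females they summed to between 4.58 and 5.68 TPM in labelled WT and 1.75 and 2.20 TPM in labelled KO libraries. Only Kdr of these 3 markers had a mean of at least 1 TPM, and Pecam1 and Cdh5 did not. Muscle markers summed to at most 0.344 TPM except in labelled female WT libraries, where the sum ran from 5.71 to 6.60 TPM. Only Des of these 3 markers had a mean of at least 1 TPM, and Myod1 and Myog did not. The epithelial and neural sums were thus lower and the fibroblast sums higher in the labelled KO than in the WT libraries of both sexes. Among single tested genes, 18.8% stood higher and 21.2% lower without overlap in labelled male KO libraries. In labelled female KO libraries these shares were 14.9% and 18.7%. The endothelial and muscle sums were lower in labelled KO without overlap only in females. The part of all these markers in the result was not tested. In bulk RNA, fewer cells of a type and less RNA per cell cannot be told apart.

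Some of the genes share sequence with others, and how reads were divided between them is not known. Phgdh had 22 copies, counted at 300 aligned bases and 90% identity, of which 18 were in the table with at most 0.328 TPM in sum, and Psat1 had 1 copy with at most 0.134 TPM. Aldh1l2 shares 1056 bases with D10Wsu102e, a gene of the opposite strand that reached 3.47 TPM where Aldh1l2 ran from 28.5 to 79.6 TPM, and Psph shares 452 bases with the opposite-strand gene Cct6a, which was not analysed here. Whether the reads were counted by strand is not stated.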

How the data were processed

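Polyadenylated RNA of the 12 cultures was sequenced and quantified by the authors with Salmon (version 1.10.1 per the labels), and the deposited table gives TPM per gene and library as Ensembl identifiers. The annotation release and the handling of strand are not given in the sources used here. The authors tested these TPM values with DESeq2. Because TPM are not counts, limma 3.58.1 (R 4.3.3) was used here instead, with lmFit and eBayes with a mean-variance trend on log2(TPM+1), over 12504 genes whose mean reached 1 TPM. Fits held the 6 libraries of the groups compared, or all 12 for the interaction, p-values were Benjamini-Hochberg adjusted over all genes tested, and calls were made at an adjusted p under 0.05. Fold changes are on the log2(TPM+1) scale, which understates changes of low genes. TPM keep no read depth, so the depth of each library is unknown and no counting interval was given. Of the table's identifiers 99.4% were matched to GENCODE M21 (GRCm38), which gave symbols and positions, and 12465 of 34866 genes were at 0 in all libraries.

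The members and lists were chosen with earlier results of these data known. Beside the members, the text names their paralogs, 5 regulators and the 10 other listed pathway genes with the largest log2 difference among those called. Of the genes this rule names, 3 are not reported here. Copies were sought with blastn 2.17.0. Ratios of 2 genes were compared by exact permutation tests. The fits were tested on simulated data. The alternatives were another pseudocount (0.1), no filter or a minimum mean of 5 TPM, quantile normalization, median-of-ratios scaling, no trend, a replicate block, all libraries in one fit and leaving out each library.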

Additional observations from a re-analysis of the deposited data

Results flagged for a closer look

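Of the genes named above, 15 of the enzymes, paralogs and other pathway genes had an effect of labelled Sirt3 KO that differed between males and females by limma's interaction test over the 12 libraries, at an adjusted p under 0.05. This was true of 13.0% of all tested genes and of 9 of the 44 tested pathway genes, and the pathway genes other than paralogs were named because they had been called, so the count of 15 is no share of a list. Values are the male minus the female log2 difference. Among the 10 enzymes these were Aldh1l2 (1.20), Pycr1 (1.17), Asns (0.86), Psph (0.79), Aldh18a1 (0.62), Phgdh (0.46), Mthfd2 (0.38), Psat1 (0.33) and Shmt2 (0.32). In Psph and Shmt2 the 2 sexes were called in opposite directions, up in males and down in females, and in the other 7 only the male difference was called. The male call of Shmt2 and the female call of Psph were each lost in 5 of the 6 fits that left out 1 library. Among the paralogs and other pathway genes, Cth (1.69), Gpt2 (0.97) and Oat (0.44) had the larger value in males, and Ass1 (-0.96), Mthfd1 (-0.33) and Glud1 (-0.25) the smaller. Cth was called up in males and down in females.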

How the results depend on the processing

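Depth is unknown, each group has 3 cultures, and lines per group are not stated. Under the 14 alternatives run for each comparison of 2 groups and the 19 for the interaction, the calls of Phgdh, Psat1, Psph, Mthfd2, Aldh1l2, Aldh18a1, Pycr1 and Asns between the male groups and in the interaction kept their direction and side of the threshold. Of 750 alternative values of the 10 enzymes, 699 kept direction and side of the threshold, 39 lost a call, 6 gained one and 6 changed sign. Of 890 values of other named genes these counts were 816, 54, 8 and 12. The cause of the changes was not tested.

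Of the enzymes, 10 were called between the male groups (8 to 10 over the alternatives) and 9 in the interaction (9 to 10). In females 2 were called, but 1 without the filter on low values, with median-of-ratios scaling and with quantile normalization, 0 without the trend, 3 with all libraries in one fit, where Phgdh was also called lower (limma adjusted p = 0.0455), and 1 to 2 on leaving out a library. The male Shmt2 call was also lost without the trend (limma adjusted p = 0.118) and with quantile normalization (limma adjusted p = 0.0551). The male Mthfd1l call was lost without the filter on low values (limma adjusted p = 0.0504). In the WT comparison 6 were called, with 8 in the fit of all libraries and 3 to 6 on leaving out a library. Other pathway genes called between the male groups were 11, but 7 without the trend, 17 with all libraries in one fit and 6 to 10 on leaving out a library, and between the female groups 3, with 1 to 2 on leaving out a library. Female calls over all genes were 704 higher and 730 lower, and 841 and 577 with median-of-ratios scaling.

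Sign changes were in values that were not called. With median-of-ratios scaling and with quantile normalization Pycrl was 0.0068 and 0.0020 in males and Aldh1l2 0.0253 and 0.00902 in females, and Asns in females was 0.0057 with the former. Leaving out a library gave -0.057 to 0.066 for Pycrl in males, and in females -0.077 to 0.088 for Aldh1l2, -0.046 to 0.0045 for Asns, -0.18 to 0.60 for Asrgl1, -0.064 to 0.20 for Ggh, -0.048 to 0.075 for Cebpb and -0.00098 to 0.12 for Sirt3. In the interaction it gave -0.089 to 0.034 for Pycrl and -0.10 to 0.038 for Sfxn3.

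The replicate numbers did not pair the libraries: same-numbered libraries of different groups deviated together with r from -0.057 to 0.078, and 3 of 12 libraries correlated best with their own number. With the replicate number as a block 10 enzymes were called between the male groups, 2 between the female groups and 9 in the interaction, and 5 and 7 in the WT and KO comparisons, where Shmt2 was not called. Of the other pathway genes 12, 1 and 8 were called in males, females and the interaction.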
